A study of Mus musculus with 9 samples.

Results

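Voltage-gated sodium and calcium channels are built from the products of 40 genes in the deposited table, out of 54532 gene identifiers of which 22046 were protein-coding. The members were the protein-coding genes with an Scn symbol that ends in a or b and the Cacna1, Cacna2d, Cacnb and Cacng genes, and the mapped interval on chromosome 8 that was set aside held 0 of them. They comprise 10 sodium channel alpha subunits, 4 sodium channel beta subunits, 10 calcium channel alpha1 subunits, 4 alpha2delta subunits, 4 calcium channel beta subunits and 8 gamma subunits. RNA was measured in brain cortex of adult male mice of 8 to 12 weeks from 3 inbred strains, with 3 mice each of C57BL6/J (B6), C3H/HeJ (C3H) and WSB/EiJ (WSB). The strains were parents of crosses used to map infarct size after stroke, and the labels name no treatment. Between 16317439 and 21562429 reads per mouse were assigned to genes. The levels below are FPKM, in which read counts are divided by gene length and a scaling factor of each library, so that genes can be compared with each other.

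A sodium or calcium channel opens its pore when the membrane depolarises. The large alpha or alpha1 subunit forms that pore and senses voltage, while the smaller subunits set how many channels reach the membrane and how fast they open and close. In cortical neurons sodium channels carry the upstroke of the action potential, and calcium channels couple firing to transmitter release and to signalling inside the cell. Several gamma subunits act mainly as auxiliary proteins of AMPA-type glutamate receptors.

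One channel gene, Cacng6, differed strongly between strains, with a mean FPKM in C3H cortex 8.61 times that in B6, and a mean in WSB that was 0.104 of that in C3H. The other 35 members that could be tested did not pass the test in any of the 3 comparisons. Of the 40 members, 36 had a mean of at least 0.1 FPKM in each comparison and were tested. The pore-forming genes Cacna1f, Scn4a, Scn10a and Scn11a were below this limit. One library, C3H replicate 2, stood apart from the other C3H mice in many members, and the counts are therefore also given without it near the end. Each comparison used limma on log2(FPKM + 0.1) over all genes, two-sided, and a gene passed when its Benjamini-Hochberg adjusted p was under 0.05.

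**Figure D1:**
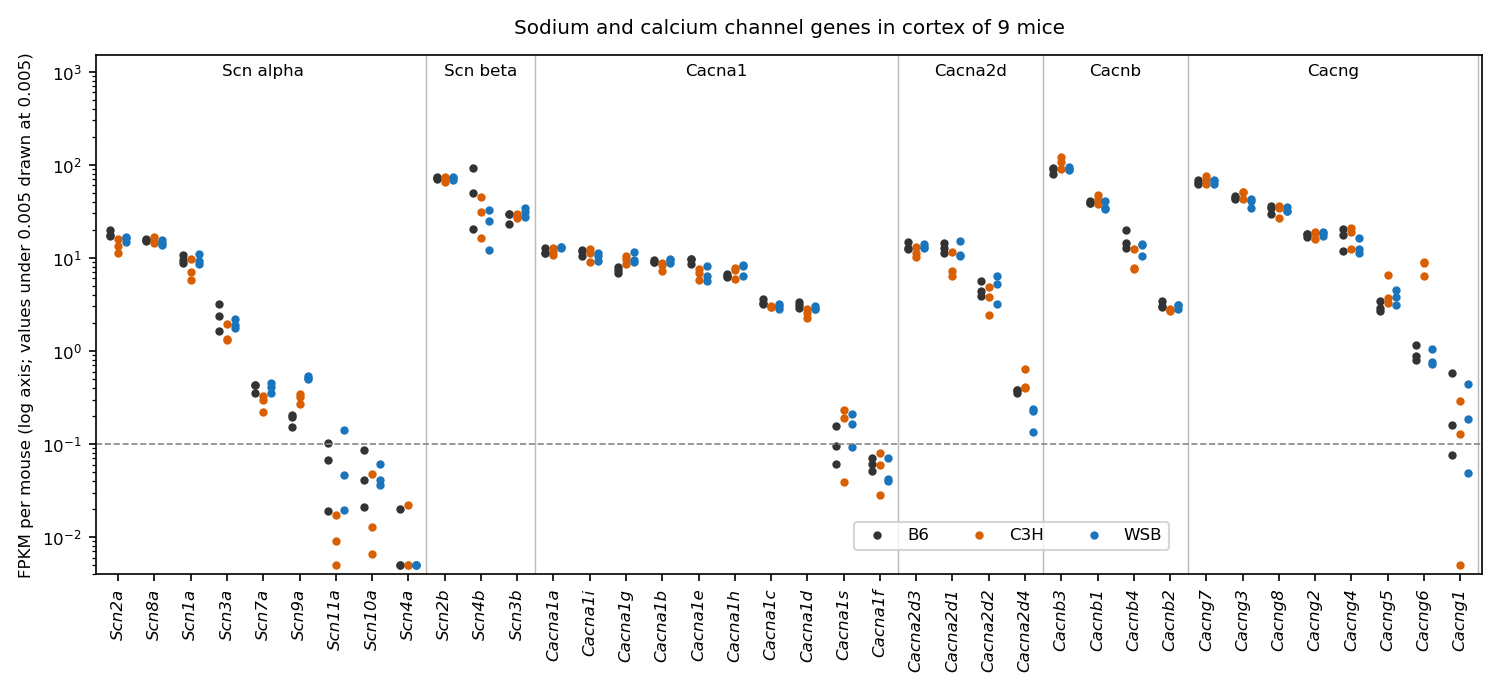
FPKM of 38 of the 40 genes in each of the 9 mice on a log axis, grouped by subunit family, with 1 point per mouse coloured by strain and a dashed line at the 0.1 FPKM limit. The 3 C3H points of Cacng6 lie well above the 6 points of the other strains.

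Between C3H and B6, 1 of 36 members passed (Cacng6, higher in C3H), where 4.64% of all 20602 genes tested did so, 2.38% higher and 2.26% lower in C3H. Between WSB and C3H, 1 of 36 passed (Cacng6 again, lower in WSB) against 5.74% of 20607 genes, 2.61% higher and 3.13% lower in WSB. Between WSB and B6, 0 of 36 passed against 5.90% of 20746 genes, 2.81% higher and 3.09% lower in WSB. In that comparison 3 of 36 members had an unadjusted p under 0.05 with limma, as did 4235 of all 20746 genes. Limma-voom weights on the recovered reads called 3 members (Scn9a, Cacna1g and Cacna1e) and 1541 of the 20746 genes. In C3H versus B6 and WSB versus C3H, 7 and 5 members had an unadjusted p under 0.05 with limma, as did 4972 and 4912 of all genes. The members' groups of 3 values did not overlap in 13, 8 and 7 of the 36 tested genes in C3H versus B6, WSB versus C3H and WSB versus B6. Over all genes tested those shares were 28.9%, 28.6% and 26.0%. The median log2 fold change of the members was -0.04 in C3H versus B6, 0.07 in WSB versus C3H and -0.01 in WSB versus B6, and over all genes tested it was -0.004, 0.009 and 0.002. The comparisons share libraries, so that each group of 3 mice enters 2 of them.

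**Figure D2:**
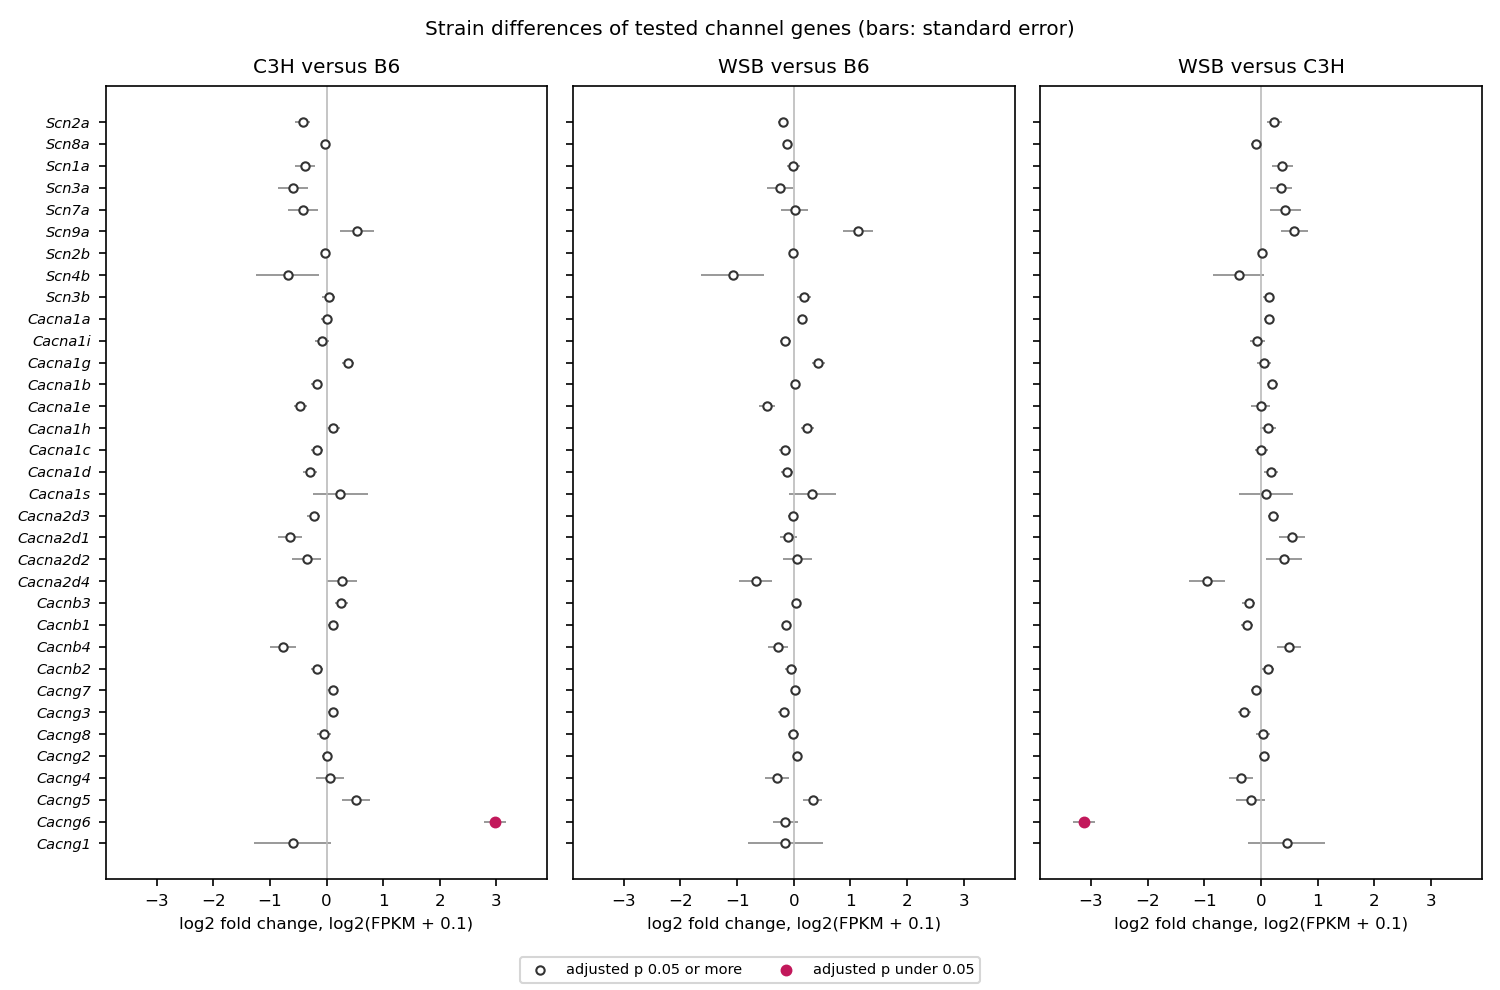
Log2 fold change with its standard error for 34 of the 36 tested members in each comparison, ordered by family. Filled points have an adjusted p under 0.05, and Cacng6 holds the 2 filled points.

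The gamma subunits span a wide range of levels. Cacng6, which encodes the gamma-6 subunit best known from skeletal muscle, measured 0.79, 1.15 and 0.88 FPKM in the B6 mice, 8.995, 6.395 and 8.888 FPKM in the C3H mice and 1.03, 0.76 and 0.72 FPKM in the WSB mice. The lowest C3H mouse was above every mouse of the other strains, while B6 and WSB overlapped. These levels rest on 28 to 46 reads per B6 mouse, 245 to 341 per C3H mouse and 26 to 34 per WSB mouse. The log2 fold change was 2.98 ± 0.19 (SE) in C3H versus B6, with an adjusted p of 0.000133 from limma and a 95% interval of 2.54 to 3.41. In WSB versus C3H it was -3.13 ± 0.19, with an adjusted p of 0.000185. In WSB versus B6 it was -0.15 ± 0.22, with an interval of -0.67 to 0.37. Cacng6 made up 0.52% of the summed Cacng FPKM in B6, 4.06% in C3H and 0.48% in WSB. Markers of skeletal muscle, the tissue in which gamma-6 is known, had sums over the 6 listed genes of 7.36 to 9.47 FPKM for B6, 8.67 to 10.9 for C3H and 9.40 to 12.7 for WSB, with 4 of the 6 under 1 FPKM in all mice. Globin and other blood markers were higher in C3H, at 632 to 1010 FPKM for the sum of 5 genes against 217 to 254 in B6 and 249 to 329 in WSB. Whether either plays a part in the Cacng6 values was not tested.

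Cacng6 lies at chr7:3424195-3435667 on the plus strand, in the coordinates of GRCm38, in a cluster with Cacng7 and Cacng8, which encode AMPA receptor auxiliary subunits. No other member overlaps it. The 300 bases around its RefSeq start (250 before and 50 after, GRCm38.p6) and those of Cacng7 are shown because these neighbours differ in strain pattern. The Cacng6 window begins inside the longer gene model used for the FPKM values. Capitals mark matches to the TATA box TATAAA, the GC box GGGCGG, the CCAAT box CCAAT, the E-box CACGTG and the REST element core GGACAGC, each searched on both strands, so that CCGCCC is a GC box on the other strand.
Cacng6, chr7:3424412-3424711, plus strand: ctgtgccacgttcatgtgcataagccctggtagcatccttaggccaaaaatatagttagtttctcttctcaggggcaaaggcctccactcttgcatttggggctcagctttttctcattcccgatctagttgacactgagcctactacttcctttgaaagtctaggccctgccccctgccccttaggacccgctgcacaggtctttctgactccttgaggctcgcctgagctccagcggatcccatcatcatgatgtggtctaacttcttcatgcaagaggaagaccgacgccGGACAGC
Cacng7, chr7:3332575-3332874, plus strand: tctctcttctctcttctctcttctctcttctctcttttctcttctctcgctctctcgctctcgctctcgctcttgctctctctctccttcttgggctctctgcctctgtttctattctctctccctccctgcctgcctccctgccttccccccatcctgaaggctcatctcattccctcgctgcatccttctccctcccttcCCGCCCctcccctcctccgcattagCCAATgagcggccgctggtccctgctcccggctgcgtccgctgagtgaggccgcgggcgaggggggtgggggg
The Cacng6 window held 1 REST core at its very end and no other match. That core lies in the 50 bases after the RefSeq start, which open with ATG, and not in the sequence before it. The Cacng7 window held 1 GC box and 1 CCAAT box. Of all 32851 RefSeq windows of this length, 35.7% held a GC box, 37.4% a CCAAT box, 13.6% a TATA box, 7.15% an E-box and 6.56% a REST core. Windows were found for 30 of the 40 members, 41 windows in all. Among these, 15 members had a GC box, 10 a CCAAT box, 2 a TATA box, 2 a REST core and 0 an E-box in at least 1 window. Some members have more than 1 window, so these counts per member cannot be set against the shares per window. The windows are those of the reference genome, and the sequence of C3H and WSB was not examined.

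The genes around Cacng6 did not share its pattern. Cacng7, the most abundant gamma gene, measured 61.6, 63.1 and 69.1 FPKM in B6, 70.6, 62.7 and 76.2 FPKM in C3H and 62.1, 66.6 and 68.4 FPKM in WSB, so that all 3 strains overlapped. Its log2 fold change in C3H versus B6 was 0.11, with a 95% interval of -0.11 to 0.32. Cacng8 ranged from 27.0 to 36.5 FPKM over the 9 mice and also overlapped in every comparison. The gene 3300002P13Rik is a long noncoding RNA of the opposite strand. It starts 749 bases before Cacng6 and is transcribed away from it. It measured 20.4, 38.1 and 37.6 FPKM in B6, 50.6, 54.6 and 43.2 FPKM in C3H and 48.6, 42.3 and 36.1 FPKM in WSB. The C3H mice were above the B6 mice, but the adjusted p was 0.148 (limma), and WSB overlapped both. Whether reads were counted by strand is not given in the sources used here.

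**Figure D3:**
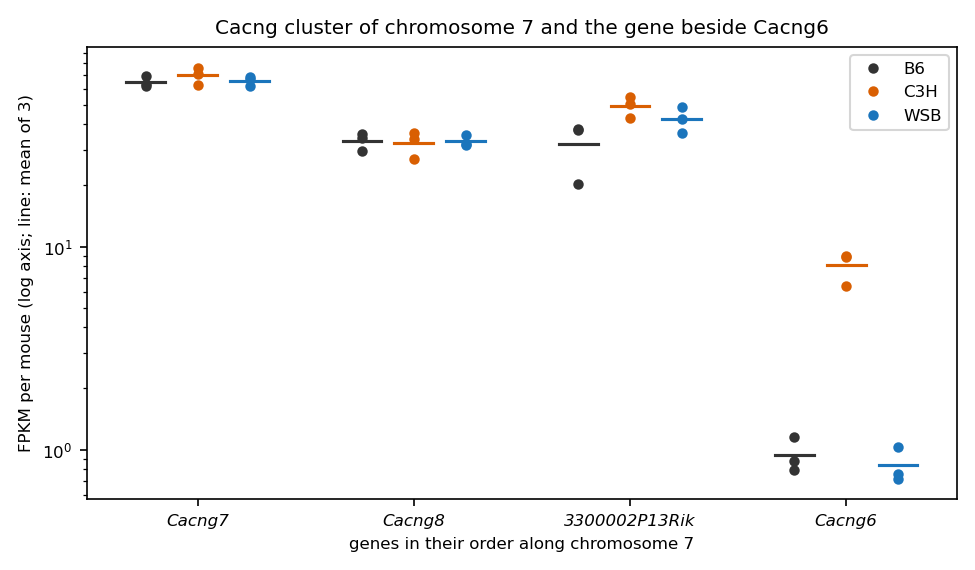
FPKM per mouse on a log axis for Cacng7, Cacng8, 3300002P13Rik and Cacng6 in their order along chromosome 7, with the mean of 3 mice as a line. Only Cacng6 among these 4 genes separates C3H from both other strains.

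Of the remaining gamma genes, Cacng3 (mean 43.9 FPKM), Cacng2 (17.8), Cacng4 (15.8) and Cacng5 (3.77) were expressed in every mouse, and Cacng1 (0.212) was at the edge of detection. Cacng2 encodes stargazin, the founding AMPA receptor auxiliary subunit. Its share of the Cacng sum was 9.73% in B6, 8.95% in C3H and 10.5% in WSB, without overlap between strains. The gap between C3H and B6 was very narrow, with 9.3038% in C3H replicate 2 and 9.3055% in B6 replicate 2. That sum includes Cacng6, which held 4.06% of it in C3H. The Cacng2 level itself stayed within 15.9 to 18.9 FPKM over all mice.

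The sodium channel alpha subunits of central neurons, Scn2a, Scn8a, Scn1a and Scn3a, made up most of the family's sum. Scn2a, which encodes Nav1.2, the alpha subunit prominent in excitatory neurons, measured 19.8, 17.0 and 17.4 FPKM in B6, 13.5, 15.98 and 11.2 FPKM in C3H and 16.7, 14.7 and 16.2 FPKM in WSB. All C3H mice were below all B6 mice, and WSB was below B6 as well. The log2 fold change was -0.42 ± 0.13 in C3H versus B6 (adjusted p = 0.124, limma) and -0.18 ± 0.09 in WSB versus B6 (adjusted p = 0.296, limma). Scn8a, which encodes Nav1.6 of the axon initial segment and nodes, held between 13.6 and 16.5 FPKM in all 9 mice. Because of this the share of Scn8a in the alpha sum was 33.3% in B6, 39.6% in C3H and 33.2% in WSB. C3H replicate 2, at 34.7%, lay within the B6 range of 31.2% to 35.0%. The share of Scn2a was 38.4%, 34.5% and 36.4%, with C3H and WSB each below B6 without overlap. Scn1a, which encodes Nav1.1 and is prominent in fast-spiking interneurons, measured 10.6, 8.80 and 9.36 FPKM in B6, 5.83, 9.64 and 6.99 FPKM in C3H and 9.18, 8.66 and 10.9 FPKM in WSB, with C3H replicate 2 among the B6 values. The summed alpha FPKM was 47.0 ± 2.93 (SD, n = 3) in B6, 39.2 ± 4.44 in C3H and 43.6 ± 1.73 in WSB.

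Scn9a was low in cortex and stood in the order B6, C3H, WSB without overlap. This gene encodes Nav1.7, known for its role in pain-sensing neurons. It measured 0.21, 0.19 and 0.15 FPKM in B6, 0.27, 0.34 and 0.32 FPKM in C3H and 0.51, 0.54 and 0.50 FPKM in WSB, from 41 to 50, 64 to 85 and 109 to 120 reads per mouse. The log2 fold change in WSB versus B6 was 1.13 ± 0.26, with a 95% interval of 0.51 to 1.75 and an adjusted p of 0.0533 from limma, just short of the threshold. In C3H versus B6 it was 0.54 (adjusted p = 0.301) and in WSB versus C3H 0.59 (adjusted p = 0.196). Scn9a lies at chr2:66480080-66634962 on the minus strand, and 180 of its exonic bases are shared with Gm13629 on the other strand. Gm13629 measured 2.09, 1.64 and 2.17 FPKM in B6, 1.97, 4.32 and 3.91 FPKM in C3H and 4.50, 5.23 and 5.01 FPKM in WSB. It passed in WSB versus B6 with a log2 fold change of 1.29 (adjusted p = 0.00204, limma), so that both genes of the pair were higher in WSB, and their reads cannot be told apart where they overlap unless counting used strand. The transcripts of Scn9a and its family members matched at up to 88.8% identity over at least 150 bases.

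The remaining alpha subunits were scarce. Scn7a, which encodes the sodium-sensing Nax, measured 0.35, 0.43 and 0.43 FPKM in B6, 0.29, 0.32 and 0.22 FPKM in C3H and 0.35, 0.46 and 0.41 FPKM in WSB. C3H was lowest without overlap, but the adjusted p was 0.381 against B6 and 0.386 against WSB (limma). Scn11a, a channel of sensory neurons, was too low to test, with 0.019, 0.067 and 0.10 FPKM in B6, 0.0091, 0.017 and 0 FPKM in C3H and 0.14, 0.019 and 0.046 FPKM in WSB. Its C3H values were the lowest, at a level of few reads. Scn10a and Scn4a stayed at or under 0.0870 and 0.0220 FPKM in every mouse.

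The sodium channel beta subunits, which are single-pass partners of the alpha subunits, help set their gating and their place in the membrane. Scn2b held between 65.8 and 74.6 FPKM and Scn3b between 23.4 and 34.4 FPKM over all mice.

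Scn4b, whose product is abundant in striatal projection neurons, varied widely among mice of each strain. It measured 92.3, 49.9 and 20.6 FPKM in B6, 31.4, 16.2 and 44.6 FPKM in C3H and 12.2, 24.8 and 32.9 FPKM in WSB, and all strains overlapped. The summed FPKM of 8 striatal markers was 773, 422 and 190 in the same B6 mice, 338, 172 and 465 in the C3H mice and 138, 283 and 351 in the WSB mice, in the same order as Scn4b within 3 of 3 strains. Over the 9 mice Pearson's r was 0.986 (exact permutation p = 1.93e-05, adjusted 0.000694 over 36 members) and Spearman's rho was 0.983 (exact permutation p = 4.96e-05, adjusted 0.00179). Without B6 replicate 1 and WSB replicate 1, the mice farthest from the median of the marker sum, r was 0.952. For Cacng4, r was 0.80 (exact permutation p = 0.0032, adjusted 0.0384) and 0.787 without those mice, but rho was 0.817 with an adjusted exact permutation p of 0.129, and the order was the same within 2 of 3 strains. Cacng1 had r = 0.864 (exact permutation p = 0.00311, adjusted 0.0384), which fell to 0.637 without them, and rho was 0.867 with an adjusted exact permutation p of 0.0812, on 0 to 13 reads per mouse. In bulk tissue a larger share of cells of one type and more RNA per cell cannot be told apart.

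**Figure D4:**
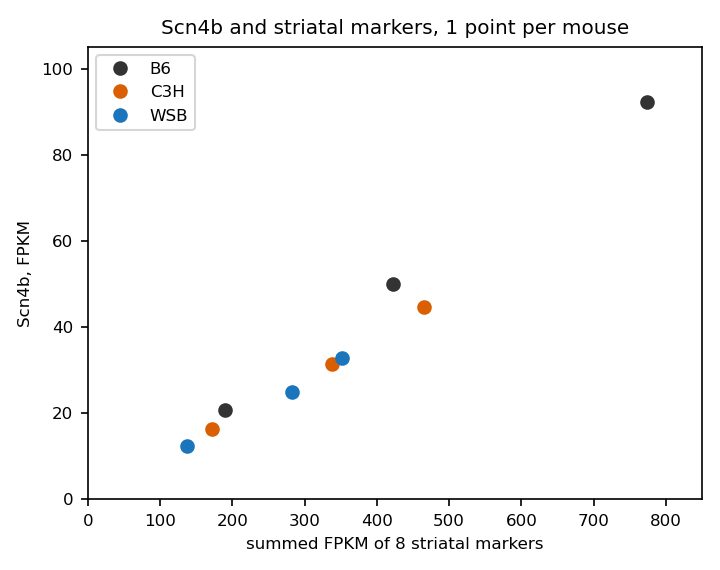
Scn4b level in FPKM against the summed FPKM of 8 striatal markers, with 1 point per mouse coloured by strain. The points run from 12.2 to 92.3 FPKM along 1 line, with B6 replicate 1 at the top.

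Among the calcium channel alpha1 subunits, 6 genes were present at similar levels, with means of 7.03 to 12.2 FPKM. The others had lower means, from 3.12 FPKM for Cacna1c down to 0.056 FPKM for Cacna1f. Cacna1a, which encodes the P/Q-type pore of presynaptic terminals, was the highest, at 11.2, 11.2 and 12.6 FPKM in B6, 12.8, 10.6 and 11.9 FPKM in C3H and 13.04, 12.8 and 13.2 FPKM in WSB. WSB lay above B6 by 0.15 ± 0.07 on the log2 scale (adjusted p = 0.312, limma). In the descending order of means (Cacna1a, Cacna1i, Cacna1g, Cacna1b, Cacna1e, Cacna1h) each gene overlapped the next over the 9 mice. The summed alpha1 FPKM was 62.0 ± 1.67 (SD, n = 3) in B6, 59.8 ± 3.98 in C3H and 63.1 ± 1.98 in WSB, with overlap in every comparison.

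Cacna1g was higher and Cacna1e lower in both C3H and WSB than in B6, each short of the threshold. Cacna1g, the T-type Cav3.1 gene that is abundant in thalamic relay neurons, measured 7.88, 6.85 and 7.33 FPKM in B6, 9.62, 8.59 and 10.5 FPKM in C3H and 8.92, 11.6 and 9.54 FPKM in WSB. Against B6 it differed by 0.37 ± 0.10 on the log2 scale in C3H (adjusted p = 0.0915, limma) and by 0.43 ± 0.11 in WSB (adjusted p = 0.0790, limma). Its share of the alpha1 sum was 11.9% in B6, 16.01% in C3H and 15.8% in WSB. The sum of 6 thalamic markers was 19.1 to 33.1 FPKM among B6 mice, 33.6 to 78.2 among C3H mice and 33.5 to 76.3 among WSB mice, and its part in the Cacna1g values was not tested. Cacna1e, the R-type Cav2.3 gene, measured 9.70, 9.60 and 8.58 FPKM in B6, 6.86, 7.66 and 5.76 FPKM in C3H and 8.20, 6.42 and 5.67 FPKM in WSB. All 6 C3H and WSB mice were below the lowest B6 mouse, with log2 fold changes of -0.46 ± 0.12 (adjusted p = 0.0800, limma) and -0.47 ± 0.14 (adjusted p = 0.111, limma). With the length trend of each library removed the C3H difference was -0.12 (adjusted p = 0.452, limma), while that of WSB was -0.38. The 2 comparisons use the same B6 mice.

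Smaller separations were seen for the other high-voltage-activated genes. Cacna1b, the N-type pore of nerve terminals, measured 9.49, 9.005 and 8.93 FPKM in B6, 8.71, 8.41 and 7.26 FPKM in C3H and 9.39, 9.68 and 8.80 FPKM in WSB. Cacna1c, the main L-type gene of brain, measured 3.21, 3.29 and 3.58 FPKM in B6, 3.03, 2.94 and 2.99 FPKM in C3H and 3.18, 3.06 and 2.78 FPKM in WSB. Cacna1d, the second L-type gene of brain, measured 3.37, 2.92 and 3.11 FPKM in B6, 2.58, 2.80 and 2.25 FPKM in C3H and 3.02, 2.82 and 2.83 FPKM in WSB. C3H was below B6 without overlap in all 3 genes, with log2 fold changes of -0.17, -0.16 and -0.30 and adjusted p of 0.302, 0.357 and 0.208 (limma). Cacna1i and Cacna1h, the other T-type genes, ranged from 9.01 to 12.3 and from 5.91 to 8.28 FPKM. Cacna1s and Cacna1f, the L-type genes of skeletal muscle and retina, stayed at or under 0.230 and 0.0794 FPKM.

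The alpha2delta subunits, extracellular partners that carry the binding site of gabapentin in Cacna2d1 and Cacna2d2, had a lower sum in C3H. It was 31.1 ± 3.60 FPKM (SD, n = 3) in B6, 24.0 ± 2.09 in C3H and 30.5 ± 0.69 in WSB, and the C3H mice overlapped neither other strain. Cacna2d3, the highest of the family, measured 14.9, 12.6 and 12.5 FPKM in B6, 10.2, 11.2 and 12.9 FPKM in C3H and 12.8, 13 and 14.0 FPKM in WSB, and C3H overlapped both. Cacna2d1 measured 14.3, 12.7 and 11.3 FPKM in B6, 7.20, 11.5 and 6.44 FPKM in C3H and 15.0, 10.8 and 10.4 FPKM in WSB. Here C3H replicates 1 and 3 were far below the other mice and replicate 2 was among them, for a log2 fold change of -0.64 ± 0.21 (adjusted p = 0.131, limma) against B6. Cacna2d4, known from photoreceptors, measured 0.35, 0.38 and 0.38 FPKM in B6, 0.41, 0.40 and 0.63 FPKM in C3H and 0.13, 0.23 and 0.24 FPKM in WSB, without overlap between any strains. Its log2 fold change was -0.95 ± 0.32 in WSB versus C3H (adjusted p = 0.132, limma) and -0.67 ± 0.30 in WSB versus B6 (adjusted p = 0.261, limma).

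The calcium channel beta subunits bind the alpha1 subunit inside the cell and carry it to the membrane. Cacnb3 was the highest, at 80.2, 93.1 and 90.9 FPKM in B6, 121, 90.9 and 107 FPKM in C3H and 94.7, 89.1 and 88.1 FPKM in WSB. C3H and B6 overlapped in level, and the share of Cacnb3 in the beta sum was 60.2% in B6, 65.8% in C3H and 63.6% in WSB. Cacnb4, the gene mutated in the lethargic mouse, measured 19.8, 14.5 and 12.8 FPKM in B6, 7.53, 12.4 and 7.76 FPKM in C3H and 14.2, 10.6 and 13.6 FPKM in WSB. C3H was below B6 without overlap by -0.77 ± 0.23 on the log2 scale (adjusted p = 0.105, limma), and replicate 2 again stood apart from the other C3H mice. Cacnb2 measured 3.41, 3.02 and 2.97 FPKM in B6, 2.85, 2.74 and 2.71 FPKM in C3H and 3.10, 3.13 and 2.85 FPKM in WSB, with C3H lowest and adjusted p of 0.369 against B6 and 0.507 against WSB (limma). Cacnb1 ranged from 33.4 to 47.1 FPKM.

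Apart from Cacng6, the members called in C3H changed when 1 mouse was left out and when voom weights were used. The differences also varied with base composition. Without C3H replicate 2, 7 of 36 members passed against B6 (limma): Cacnb4 (-1.004), Cacna2d1 (-0.89), Scn1a (-0.57), Cacna1e (-0.55) and Scn2a (-0.54) were lower in C3H and Cacna1g (0.45) and Cacng6 (3.13) higher, as log2 fold changes. Over all 20562 genes tested without that mouse 11.2% passed, against 4.64% with it. In WSB versus C3H without it, 3 members passed, with Cacnb4 (0.72) and Cacna2d1 (0.80) higher in WSB besides Cacng6, against 9.71% of 20614 genes. In the C3H versus B6 comparison the members' log2 fold changes correlated with the GC content of the longest transcript, with Spearman's rho of 0.47 over 36 genes and 0.49 over 12940 genes above 1 FPKM, both across genes, which share the same 6 libraries and are not independent. The 8 tested members under 45% GC, among them Cacnb4, Cacna2d1, Scn1a and Scn2a, had a median log2 deviation from the B6 mean of -0.56 in C3H replicate 1, -0.18 in replicate 2 and -0.66 in replicate 3. For the 12 members over 55% GC these medians were 0.20, -0.13 and 0.17. In the WSB mice the medians were -0.19 to -0.07 for the first class and -0.03 to 0.14 for the second. With the GC trend, the length trend or both removed from each library, Cacng6 was still called in C3H against both other strains. With both trends removed, the C3H versus B6 log2 difference was closer to 0 for Cacnb4 (-0.42), Cacna2d1 (-0.25), Cacna1e (-0.21), Scn2a (-0.13), Scn1a (-0.10) and Cacna1g (0.30), and farther from 0 for Scn9a (0.87).

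**Figure D5:**
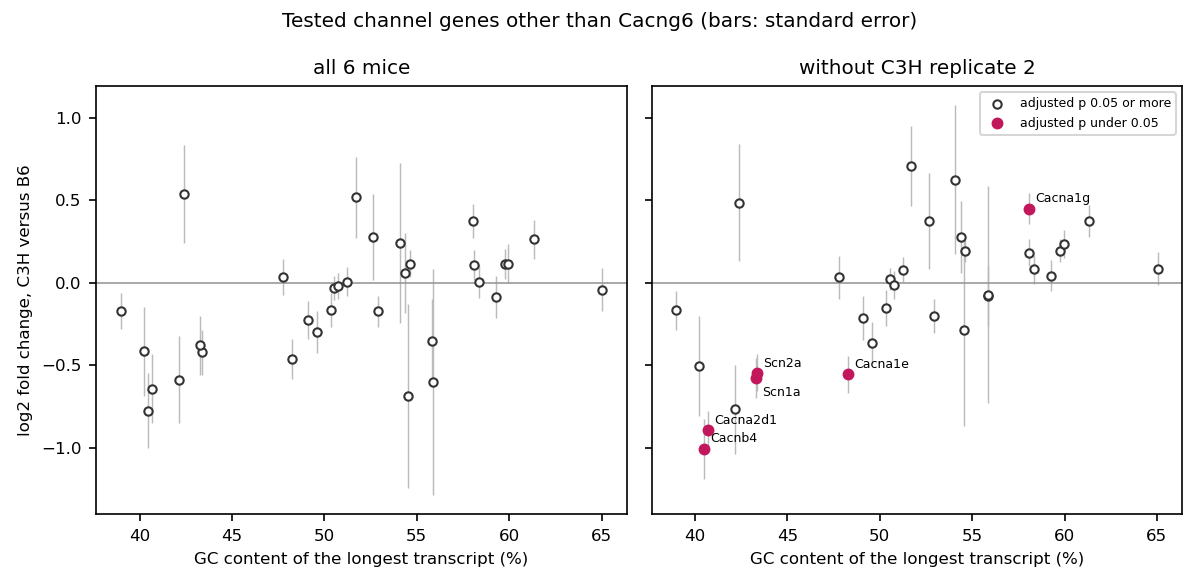
Log2 fold change in C3H versus B6 with its standard error against transcript GC content for 33 tested members other than Cacng6, with all 6 mice (left) and without C3H replicate 2 (right). Members under 45% GC lie mostly below 0, and the filled points with an adjusted p under 0.05 appear only in the right panel.

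Proteins that bind these channels were described from a list of 32 genes, of which 31 were in the table and tested. They include the FGF-like factors and ankyrins that hold sodium channels at the axon initial segment, calmodulins, release-site scaffolds and the NALCN leak channel complex. Between WSB and B6 and between WSB and C3H, 0 of 31 passed with limma. In these, 10 and 9 had an unadjusted p under 0.05 with limma, as did 4235 of 20746 and 4912 of 20607 genes. Voom weights called 3 and 1 of the 31, and 1541 and 1757 of all genes. Between C3H and B6, 14 of 31 had an unadjusted p under 0.05 with limma, as did 4972 of 20602 genes. There 3 of 31 passed as lower in C3H and 0 as higher, where 2.26% of all genes were lower and 2.38% higher. These were Unc80, a scaffold of the NALCN complex (-0.77 ± 0.15, adjusted p = 0.0294, limma), Ank3, which encodes ankyrin-G of the initial segment (-0.40 ± 0.09, adjusted p = 0.0478, limma), and Stac3, an adaptor of the muscle L-type channel (-1.27 ± 0.21, adjusted p = 0.0159, limma). Stac3 was low and rested on 18 to 23 reads per C3H mouse and 50 to 66 per B6 mouse. With the gene length trend removed, the Ank3 difference was -0.01. The count of 3 was 8 without C3H replicate 2, 1 without B6 replicate 2, without B6 replicate 3 or without C3H replicate 1, and 0 without B6 replicate 1, without C3H replicate 3 or with the replicate block. Over all genes tested, the main fit called 956, against 2301 without C3H replicate 2. All-gene calls were 498 to 569 with 1 other mouse left out and 480 with the replicate block. Among the other alternatives the count ran from 1 without an eBayes trend (699 of all genes) to 6 with the GC trend removed (1164). The median log2 fold change of the 31 genes was -0.13 in C3H versus B6, 0.08 in WSB versus C3H and -0.05 in WSB versus B6.

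Markers of cortical excitatory neurons were present in every mouse, with a sum over 5 genes of 304 to 464 FPKM, and the dissected tissue differed between strains in other markers. Choroid plexus markers ranged from 64.0 to 762 FPKM in sum within B6 alone. The summed FPKM of 6 oligodendrocyte markers was 784 to 982 for B6, 734 to 989 for C3H and 427 to 617 for WSB. Inhibitory neuron markers summed to 582 to 605 FPKM for B6, 579 to 670 for C3H and 623 to 759 for WSB. Hippocampal markers summed to 38.4 to 52.8, 49.5 to 54.5 and 68.2 to 79.4 FPKM. The part of these differences in the channel gene values was not tested.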

How the data were processed

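The authors sequenced cortex mRNA as paired reads, removed adapters with Cutadapt, took gene counts from HTSeq and deposited 1 table of FPKM values, with 1 column per mouse. The submitters' processing notes also name STAR and DESeq2. Versions, genome build and strand setting are not given in the sources used here. All 40 members had the same coordinates in GENCODE M21 (GRCm38), and GC content came from its longest transcript. Multiplying FPKM by the deposited gene length gave whole reads per library (tolerance 0.01), which were used for depth and voom only. Pairs of strains were compared with limma 3.58.1 in R 4.3.3 (lmFit and trended eBayes, two-sided). The values fitted were log2(FPKM + 0.1) of every gene whose mean reached 0.1 FPKM, p-values were adjusted over all of them by Benjamini-Hochberg, and the threshold was 0.05. A fold change on this scale understates the change of low genes. Each strain had 3 mice, and an exact permutation test of 3 against 3 cannot go below p = 0.10. Intervals are 95% limma intervals. Transcripts were compared with blastn 2.17.0, and figures were drawn with matplotlib 3.10.9.

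Values per mouse were given for members that passed in a comparison, members whose strains did not overlap in at least 2 comparisons and the highest member of each family. Values of 2 members are not reported here, though they were tested and are in the counts. Scn1a, Scn4b, Cacna2d1, Cacnb4, Cacng1, Cacng4 and the neighbouring genes were chosen after their values were seen. The members and lists were chosen with earlier results of these data known. Alternatives changed the pseudocount, filter, scaling, variance model, weights, replicate block, GC and length trends, gene set and mice. The deposited scaling was already proportional to median-ratio size factors in all 9 libraries. The median-ratio alternative therefore amounted to the main fit and could not test the scaling.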

Additional observations from a re-analysis of the deposited data

How the results depend on the processing

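Cacng6 was called in C3H versus B6 and in WSB versus C3H under all 20 alternatives run for each, with log2 fold changes of 2.22 to 3.13 and -3.28 to -2.30. The count of members called in WSB versus B6 was 0, and 1 (Scn9a) with 3 strains in one fit, without an eBayes trend, with the GC trend, the length trend or both removed, and over protein-coding genes only. It was 3 with voom weights and 0 to 1 with 1 mouse left out, where the 1 was Cacna1e (-0.61) without WSB replicate 1. In C3H versus B6 the count of 1 became 6 with voom weights (among them Cacnb4, Cacna2d1, Cacna1g, Cacna1e and Cacng6), 2 with GC and length trends removed (Cacng8, -0.30, besides Cacng6) and 1 to 7 with 1 mouse left out, the 7 being without C3H replicate 2. In WSB versus C3H the count of 1 became 2 without an eBayes trend, 3 with voom weights (Cacng6, Cacna2d4 and Scn9a) and 1 to 3 with 1 mouse left out. Over all genes tested, voom weights called 1541 in WSB versus B6, 1488 in C3H versus B6 and 1757 in WSB versus C3H. The main fit called 1224, 956 and 1182. In that order, 3 strains in one fit called 1473, 1390 and 1682 of all genes. Without an eBayes trend 946, 699 and 897 passed. With the GC trend removed 1417, 1164 and 1432 passed, and with the length trend removed 1186, 894 and 1163. With both removed 1384, 1104 and 1409 passed. Of 15116, 15096 and 15117 protein-coding genes, 1042, 931 and 1088 passed. With 1 mouse left out 651 to 825, 498 to 2301 and 475 to 2002 passed, with 2301 and 2002 being without C3H replicate 2. The cause of these changes was not tested. With the replicate block the counts of members were 0, 1 and 1, as without it, while 754, 480 and 531 of all genes passed. No pairing of the mice by number was detected, as 0 of 9 libraries correlated best with their own number. With 3 mice per strain, this check could miss a pairing. Of the C3H versus B6 differences, 16 of 36 were positive, and 11 with the GC trend removed and 20 with the length trend removed. The Cacng8 difference in C3H versus B6 was -0.04 with all mice and 0.09 without C3H replicate 2. The low counts of Scn9a, Cacng6 in B6 and WSB, and the untested genes limit what could be seen at this depth.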
